A study of Mus musculus with 2 samples.

Results

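The cytochrome P450 (CYP) genes of the mouse kidney were examined in 2 whole-kidney mRNA libraries, 1 from a wild-type (WT) and 1 from an *Inmt* transgenic (Tg) background. Both library names carry the term acute kidney injury (AKI), which stands here for the procedure. Members were all rows of the deposited table whose symbol began with Cyp and a digit. *Cyp1a1*, *Cyp1a2*, *Cyp1b1*, *Cyp24a1* and *Cyp27b1* were left out by name. Of 57 rows that matched, 4 were left out in this way and *Cyp1a2* had no row, so 53 of the 19829 listed genes were members. They comprised 47 protein-coding genes and 6 pseudogenes. P450 genes that have no row were not analysed.

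WT+AKI is the library of the study's I/R+WT+Voc group, and TG+AKI that of its I/R+Tg+Voc group. The mice were male C57BL/6, 14 weeks old at surgery, and the Tg mice overexpress *Inmt*, an indolethylamine N-methyltransferase, in proximal tubules. The promoter that drives the transgene was not given in the sources used here. Both groups received voclosporin (Voc), a calcineurin inhibitor, at 30 mg/kg daily by intraperitoneal injection, with 8 to 10 weeks of age named as the period in one place and a longer course in another. Both then underwent 30 min of bilateral renal ischemia followed by reperfusion (I/R), with kidneys taken 24 h or 48 h later, since the sources give both times. The treatment field of both samples states no treatment although the series design names voclosporin, and the title of the TG+AKI sample also mentions a conditional knockout. RNA came from the left kidney, and whether several mice were pooled for a library was not stated in the sources used here.

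P450 enzymes are heme proteins that insert an oxygen atom into their substrates with electrons from a reductase. In the kidney, CYP2 enzymes oxidize drugs and turn arachidonic acid into epoxides that widen vessels. CYP4 enzymes hydroxylate the ends of fatty acids, and one of the products from arachidonic acid constricts renal vessels. Most of this metabolism takes place in the proximal tubule, with smaller families devoted to sterols, steroid hormones, retinoic acid and vitamin D.

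Depth was alike, with 38542764 reads in WT+AKI against 36427421 in TG+AKI. Values are reads divided by a scaled library size, so that 1 read equalled 0.0236 in WT+AKI against 0.0302 in TG+AKI. *Inmt* was 10.4 in WT+AKI against 403 in TG+AKI, 38.5-fold higher (95% interval 35.1 to 42.5), in the direction of the labels. Of 13 proximal tubule markers, 11 were at least 2-fold higher in TG+AKI and none was 2-fold lower, and their summed value was 6949 in WT+AKI against 30987 in TG+AKI. All 5 injured tubule markers were lower in TG+AKI, with sums of 1885 and 17.9. *Havcr1*, the gene of kidney injury molecule, was 1169 in WT+AKI against 2.78 in TG+AKI, so AKI is used here as part of a library name and not as a state measured in both kidneys. The tubule markers therefore differed between the libraries as well, and the P450 genes below went in both directions. The part of these markers in the results below was not tested. Fewer cells of a type and less RNA per cell cannot be told apart in bulk tissue.

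With 1 library per group, no difference has a replicate check, and the spread between mice of a group could not be measured. Bracketed intervals are 95% Clopper-Pearson intervals of the ratio of the TG+AKI to the WT+AKI value, from the reads of the 2 libraries. They cover counting error only, and may be too narrow even for that, since the reads are PCR products without molecular identifiers. A gene was counted as higher or lower when its difference reached 2-fold on the log2(value + 0.1) scale and its value was at least 1 in at least 1 library. A log2 difference on this scale understates the change of low genes.

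More P450 genes were higher than lower in TG+AKI. Of the 53 members, 43 had a value of at least 1 in a library, and 18 of them were higher by the 2-fold rule and 7 were lower. Among all 14997 genes that passed the same threshold, 7.02% were higher and 10.5% lower, against 41.9% and 16.3% of the 43 members. The median log2 difference of the 43 members was 0.87, and that of all genes was -0.02. Member differences ranged from -3.35 for *Cyp3a13* to 4.04 for *Cyp2d12*.

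The threshold on low values bears on these counts. Of the 43 members, 34 had a value of at least 1 in both libraries, with 12 higher and 5 lower, where 5.65% of 13791 genes were higher and 7.79% lower. The other 9 passed through 1 library only, where a difference is built into the threshold, and included 6 of the higher and 2 of the lower members. The median log2 difference was 0.41 for the 34 members and 1.60 for these 9, so the median of 0.87 for all 43 depends on the threshold. At a value of at least 10 in a library, 31 members remained, 12 higher and 4 lower, where 6.07% of 10294 genes were higher and 7.62% lower. At a value of at least 100, 14 members remained, 8 higher and 0 lower, where 12.8% of 2179 genes were higher and 7.94% lower.

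The summed value of all 53 members was 5066 in WT+AKI against 10601 in TG+AKI, 2.09 times as much. Most of this gain came from *Cyp4b1*, *Cyp2e1* and *Cyp2j5*, chosen after their values were seen. Without these 3 genes the sums were 3726 and 4334, a ratio of 1.16.

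**Figure D1:**
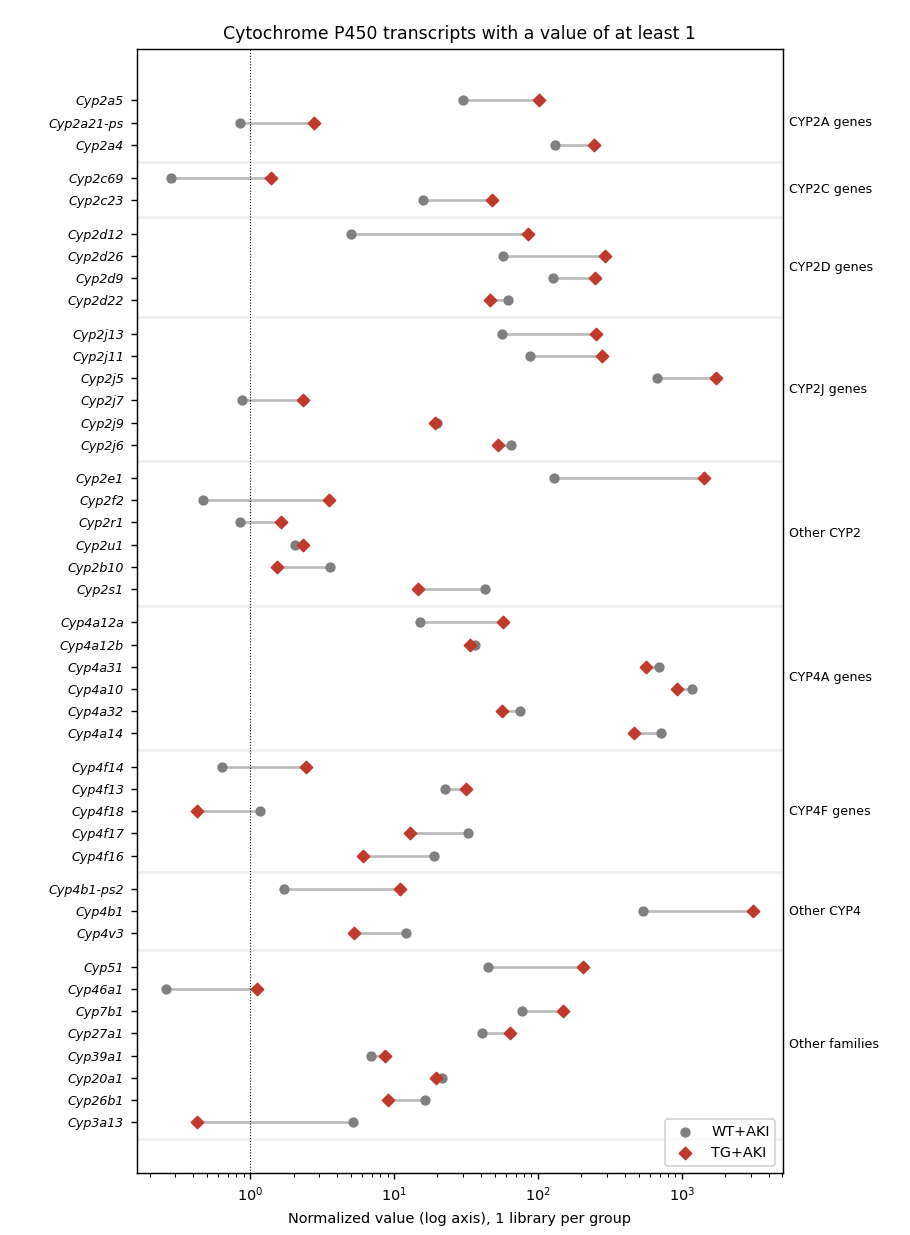
Normalized values (log axis) of the 43 members that reached a value of at least 1 (dotted line) in a library, grouped by subfamily. Grey circles are WT+AKI and red diamonds TG+AKI, with 1 library each and no error bars. The widest gaps are those of *Cyp2d12*, from 5.05 to 84.7, and *Cyp3a13*, from 5.21 to 0.423.

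The CYP2 genes gave most of the higher members. This family holds the arachidonic acid epoxygenases and many drug-metabolizing enzymes. Of 25 CYP2 members (without *Cyp2r1*, described with vitamin D), 20 passed, 12 higher and 2 lower, with a median log2 difference of 1.46. By the same rule, 7.02% of all genes past the threshold were higher and 10.5% lower. Of the 12, *Cyp2a21-ps*, *Cyp2c69*, *Cyp2f2* and *Cyp2j7* passed through TG+AKI only, where a difference is built into the threshold. They enter both the count of 12 and the median of 1.46. The summed value of the 25 CYP2 members was 3.19 times as high in TG+AKI.

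*Cyp2e1*, which oxidizes ethanol, acetone and small solvents, was 130 in WT+AKI (5508 reads) against 1422 in TG+AKI (47079 reads), a ratio of 10.9 [10.6 to 11.3]. Per kb of transcript it was 70.9 and 776, which placed it 8th in WT+AKI and 2nd in TG+AKI among the members. It was the member with the second largest gain in value after *Cyp4b1*.

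The CYP2D genes lie together and moved unequally. *Cyp2d12* was 5.05 in WT+AKI against 84.7 in TG+AKI, a ratio of 16.8 [14.6 to 19.4] and the largest of the members. *Cyp2d26* was 57.5 and 294, a ratio of 5.11 [4.89 to 5.35]. *Cyp2d9*, known as a male-predominant testosterone hydroxylase of the liver, was 127 and 250, a ratio of 1.97 [1.90 to 2.04] that stayed just under the threshold. *Cyp2d22* was 62.0 and 46.4, with a ratio below 1, at 0.747 [0.701 to 0.796]. The intervals of these 4 neighbours did not overlap. *Cyp2d10*, *Cyp2d13* and *Cyp2d37-ps* were below a value of 1 in both libraries.

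The CYP2J genes encode epoxygenases, of which *Cyp2j5* is the classical one of the mouse kidney. *Cyp2j5* was 676 in WT+AKI against 1714 in TG+AKI, a ratio of 2.54 [2.50 to 2.57]. *Cyp2j13* was 56.3 and 251, a ratio of 4.47 [4.27 to 4.68], and *Cyp2j11* was 88.5 and 280, a ratio of 3.17 [3.05 to 3.29]. All 3 were thus higher in TG+AKI, with ratios beyond one another's intervals. *Cyp2j6* was 65.1 and 52.6, a ratio of 0.808 [0.761 to 0.859], and *Cyp2j9*, with 850 and 632 reads, had a ratio of 0.952 [0.857 to 1.06] whose interval includes 1. The pseudogene *Cyp2j7* was higher at low values, 0.873 and 2.33, and *Cyp2j8* stayed below 1. In all, 4 of 6 CYP2J members that passed were higher and none reached a 2-fold lower value. Among all genes past the threshold, 7.02% were higher and 10.5% lower. Of the 4, *Cyp2j7* passed through TG+AKI only.

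*Cyp2c23*, a renal epoxygenase of the CYP2C subfamily, was 15.9 in WT+AKI against 47.5 in TG+AKI, a log2 difference of 1.58 with a ratio between 2.74 and 3.29. *Cyp2c69* was 0.283 and 1.39, from 12 and 46 reads, and 36.3% of its 100-base words occur in other genes, so its reads may be split with them. *Cyp2c67* was listed with 2 and 4 reads and passed no threshold.

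Among the CYP2A genes, *Cyp2a5*, a coumarin hydroxylase, was 29.9 in WT+AKI against 101 in TG+AKI, a ratio of 3.39 [3.18 to 3.62]. *Cyp2a4*, a steroid hydroxylase close to it in sequence, was 132 and 246, a ratio of 1.86 [1.80 to 1.92]. Both ratios lay above 1, but only *Cyp2a5* reached 2-fold. Shared 100-base words made up 14.4% of the *Cyp2a5* and 11.2% of the *Cyp2a4* transcript, so a small part of their reads may be exchanged.

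The lower CYP2 members were *Cyp2s1* and *Cyp2b10*. *Cyp2s1*, an enzyme of epithelia outside the liver, was 43.1 in WT+AKI against 14.7 in TG+AKI, a ratio of 0.341 [0.308 to 0.377]. *Cyp2b10*, a drug-induced gene of the liver, was 3.61 and 1.54, a ratio of 0.427 [0.305 to 0.589]. *Cyp2f2*, best known from the club cells of the airway, was 0.472 and 3.53, from 20 and 117 reads. *Cyp2u1* was 2.05 and 2.33, with an interval of the ratio of 0.823 to 1.56.

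The CYP4 genes divided. Of 17 members, 14 passed, 4 higher and 4 lower, with a median log2 difference of -0.32. Of these 14, 28.6% were higher and 28.6% lower, against 7.02% and 10.5% of all genes past the threshold. Among the called members, *Cyp4f14* passed through TG+AKI only and *Cyp4f18* through WT+AKI only. The summed value was still 1.59 times as high in TG+AKI because of *Cyp4b1* alone, which was 535 in WT+AKI (22675 reads) against 3131 in TG+AKI (103675 reads), a ratio of 5.85 [5.77 to 5.94]. *Cyp4b1* hydroxylates fatty acids and activates some plant toxins. Its pseudogene *Cyp4b1-ps2* was 1.72 and 11.0, a ratio of 6.37 [4.94 to 8.30]. That interval contains the ratio of *Cyp4b1*, and 15.8% of the pseudogene's words occur in other genes, so reads of the one may be counted for the other.

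The CYP4A genes, which hydroxylate fatty acids and are classical targets of the lipid sensor PPARα, mostly had ratios below 1 and stayed within 2-fold. *Cyp4a10* was 1182 in WT+AKI against 922 in TG+AKI, a ratio of 0.780 [0.769 to 0.791]. *Cyp4a14* was 712 and 466, a ratio of 0.653 [0.641 to 0.666], and *Cyp4a31* was 688 and 566, a ratio of 0.822 [0.807 to 0.837]. Per kb of transcript these were among the 5 highest members in WT+AKI. *Cyp4a32* was 74.8 and 56.2, a ratio of 0.751 [0.709 to 0.796], with 20.1% of its words shared. Shared words also made up 12.7% of the *Cyp4a10* and 8.22% of the *Cyp4a31* transcript, so part of these reads may be exchanged.

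*Cyp4a12a*, the male-predominant arachidonic acid hydroxylase of the mouse kidney, went the other way. It was 15.1 in WT+AKI against 56.9 in TG+AKI, a ratio of 3.76 [3.44 to 4.12], whereas its near copy *Cyp4a12b* was 36.5 and 33.8, a ratio of 0.925 [0.855 to 0.999]. The intervals are far apart, but 35.8% of the *Cyp4a12a* and 36.2% of the *Cyp4a12b* words are shared between the 2 genes, and how the authors' counting split them is uncertain. The summed value of the 6 CYP4A genes was 0.775 times as high in TG+AKI.

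The CYP4F genes, which act on leukotrienes and other long fatty acids, supplied 3 of the 4 lower CYP4 members. *Cyp4f16* was 18.9 in WT+AKI against 6.04 in TG+AKI, a ratio of 0.319 [0.272 to 0.373], and *Cyp4f17* was 32.4 and 12.9, a ratio of 0.397 [0.355 to 0.443]. Shared words made up 9.80% of the *Cyp4f16* transcript. *Cyp4f18*, which inactivates leukotriene B4 in neutrophils, was 1.16 and 0.423, from 49 and 14 reads. The exceptions were *Cyp4f13* at 22.5 and 31.6, a ratio of 1.41 [1.29 to 1.54], and *Cyp4f14*, which was higher at 0.637 and 2.45. *Cyp4f15*, *Cyp4f37* and *Cyp4f41-ps* stayed below 1. The fourth lower member, *Cyp4v3*, a fatty acid hydroxylase, was 12.0 and 5.25, a ratio of 0.439 [0.367 to 0.522].

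These shifts changed the make-up of P450 transcripts. Per kb of the longest transcript, the level that allows genes to be set against each other, the members with a transcript in the annotation summed to 2291 in WT+AKI against 5126 in TG+AKI. The CYP4A genes made up 52.0% of that sum in WT+AKI and 18.0% in TG+AKI. *Cyp4b1* made up 12.3% and 32.3%, and *Cyp2e1* 3.09% and 15.1%. The CYP2J share hardly moved, 16.3% and 18.7%, since *Cyp2j5* grew about as much as the total. The highest member per kb was *Cyp4a10* in WT+AKI and *Cyp4b1* in TG+AKI, and the 5 highest together held 73.8% and 74.6%.

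**Figure D2:**
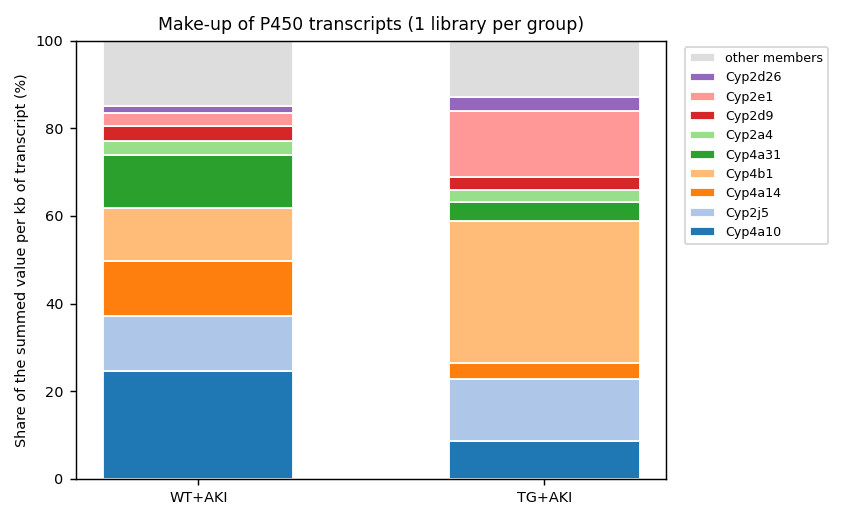
Share of the summed value per kb of transcript (%) of the members that ranked among the 7 highest in either library, with all other members in grey. Each bar is 1 library. *Cyp4a10*, *Cyp4a14* and *Cyp4a31* shrink from 24.5%, 12.5% and 12.0% to 8.53%, 3.64% and 4.40%, while *Cyp4b1* and *Cyp2e1* widen.

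Of 5 sterol-metabolizing P450 genes, 2 were higher by the 2-fold rule, as were 7.02% of all genes past the threshold. The other 3 were neither higher nor lower. *Cyp51*, the lanosterol demethylase of cholesterol synthesis, was 44.6 in WT+AKI against 207 in TG+AKI, a ratio of 4.64 [4.41 to 4.88]. *Cyp7b1*, an oxysterol hydroxylase of bile acid synthesis, was 77.6 and 149, a ratio of 1.92 [1.84 to 2.01], and *Cyp27a1*, the mitochondrial sterol hydroxylase, was 40.9 and 63.9, a ratio of 1.56 [1.46 to 1.66]. *Cyp39a1*, a further oxysterol hydroxylase, was 6.93 and 8.70, a ratio of 1.25 [1.06 to 1.48], and with equal column totals its log2 difference was 0.05. The brain cholesterol hydroxylase *Cyp46a1* passed the rule on few reads, 11 and 37, at values of 0.259 and 1.12. With a pseudocount of 1 its log2 difference fell from 1.76 to 0.75, so this call depends on the pseudocount.

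The remaining roles held few members. *Cyp3a13* was the only CYP3A member, a subfamily whose human enzymes clear calcineurin inhibitors. It was 5.21 in WT+AKI (221 reads) against 0.423 in TG+AKI (14 reads), a ratio of 0.0811 [0.0436 to 0.139] or 12.3-fold lower, the largest decrease among the members. This gene passed the threshold through WT+AKI only. *Cyp26b1*, which degrades retinoic acid, was 16.3 and 9.09, a ratio of 0.558 [0.485 to 0.639], and *Cyp26a1* had 2 and 3 reads. *Cyp2r1*, a vitamin D 25-hydroxylase, was 0.849 and 1.63, a ratio of 1.92 [1.24 to 3.01].

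*Cyp20a1*, an orphan P450 without a settled substrate, was 21.4 in WT+AKI against 19.4 in TG+AKI, a ratio of 0.906 whose interval runs from 0.817 up to 1. *Cyp17a1*, an enzyme of steroid hormone synthesis, had 8 and 4 reads, and a difference was not detectable at this depth. It was the only listed member for steroid hormone synthesis. Adrenal tissue can be carried along with a kidney, and 3 of 6 adrenal cortex markers were listed, *Star*, *Mrap* and *Akr1b7*. Their sums were 4.39 in WT+AKI against 4.26 in TG+AKI, but the 3 genes differed in direction. *Star* had a ratio of 0.675 [0.466 to 0.968] and *Mrap*, below a value of 1, of 0.454 [0.206 to 0.929]. The ratio of *Akr1b7* was 1.64 [1.17 to 2.31].

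Many members sit in clusters, here taken as at least 3 members under 1000 kb from the next on the GRCm38.p6 assembly. A CYP2J cluster of 7 members spans chromosome 4 from 96042660 to 96664171, and a cluster of 8 CYP4A and CYP4B members lies on the same chromosome from 115299046 to 115647721. A cluster of 6 members spans chromosome 7 from 25802469 to 27133660, with *Cyp2s1* and *Cyp2b10* at one end, both lower, and *Cyp2a5*, *Cyp2a21-ps* and *Cyp2f2* at the other, all higher. CYP2D holds 7 members on chromosome 15 from 82370527 to 82794452, and CYP4F holds 7 on chromosome 17 from 32506192 to 32965716.

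The chromosome 7 and chromosome 17 clusters each held both higher and lower members. Part of this rests on members that passed the threshold through TG+AKI only, where a difference is built in. They were *Cyp4f14*, the only higher member of the chromosome 17 cluster, and *Cyp2a21-ps* and *Cyp2f2* on chromosome 7. *Cyp2a5* on chromosome 7 was above the threshold in both libraries. The other 3 clusters held higher members and members within 2-fold. Of the members that passed, 4 of 6 were higher in CYP2J and 2 of 4 in CYP2D. In the CYP4A and CYP4B cluster 3 of 8 were higher, and 0 were lower in each of the 3 clusters. Among all genes past the threshold, 7.02% were higher and 10.5% lower, so 0 lower says little in clusters this small. Of the 4 in CYP2J, *Cyp2j7* passed through TG+AKI only. In the CYP4A cluster the genes at both ends, *Cyp4a12a* and *Cyp4b1*, were higher, while 5 of the 6 between them lay within 2-fold, the exception being *Cyp4b1-ps2*.

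**Figure D3:**
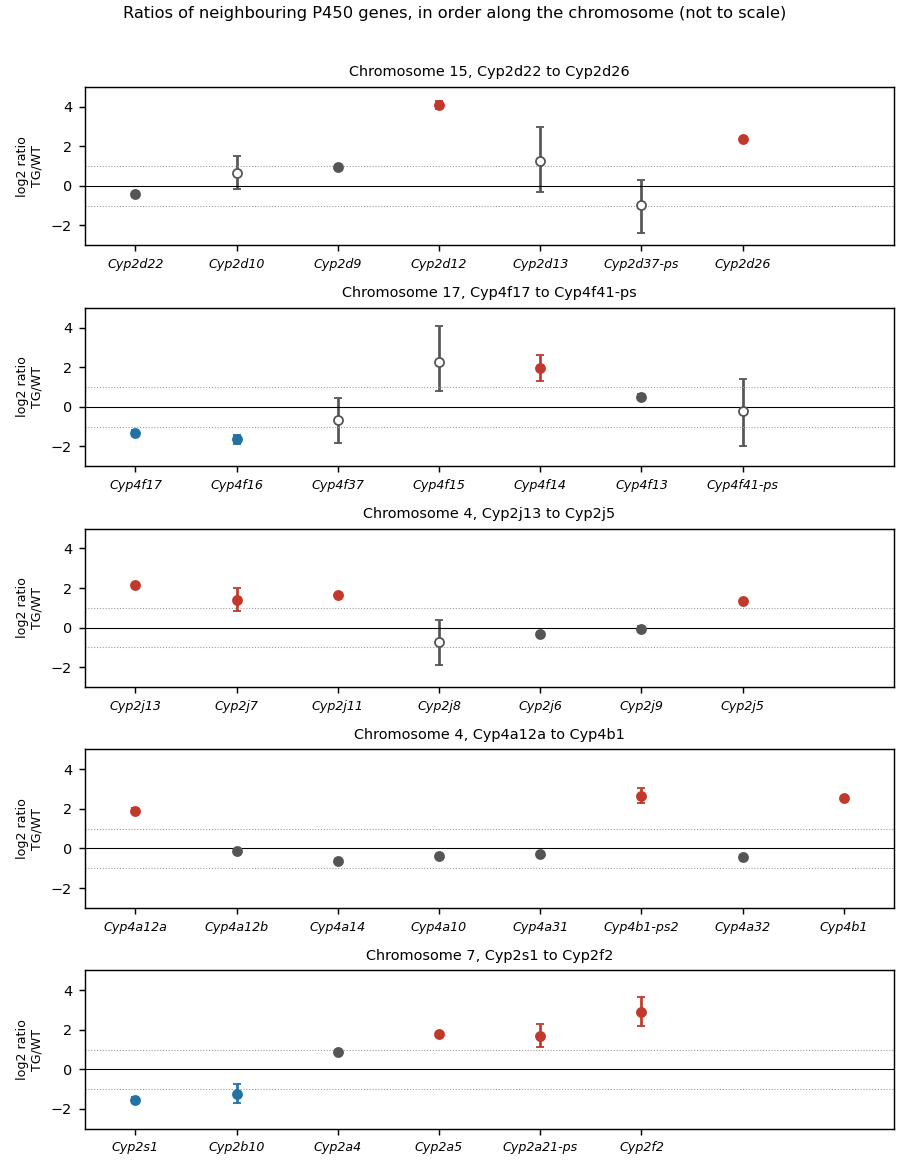
Log2 ratio of TG+AKI over WT+AKI for the members of the 5 clusters of at least 3 members, in order along the chromosome and not to scale. Red points are at least 2-fold higher, blue at least 2-fold lower, grey neither and open points below a value of 1 in both libraries, with bars for the 95% counting interval and dotted lines at 2-fold. Red and blue points share the chromosome 7 and chromosome 17 panels.

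The bases before the start given by promoter entries were searched for short motifs on both strands. RefSeq promoter windows of GRCm38.p6 were matched for 34 members, and the 250 bases before the start of the entry were read. That start can differ from the end of the annotated gene. For *Cyp2d26*, which spans 82790107 to 82794452 on the minus strand, the window printed below lies inside the gene, as does that of *Cyp2d10*. Of 9 motifs looked at with the member values in view, TATAAA is shown because it lay at a similar distance from the start in several members. It was found for 10 of the 34 members (29.4%), against 12.4% of all 32851 windows. The first share counts members and the second counts windows, here and for the other motifs, so their units differ. In 7 members, all of the CYP2 family, it lay at most 45 bases before the start, and 2 of these were below a value of 1. The windows of the other 5 are printed with the motif in capitals, as TATAAA on the strand of the gene or TTTATA where it lies on the opposite strand.
*Cyp2e1*: tcaacgacacgtTATAAAatccttgtttct
*Cyp2a5*: tgtctctggatgTATAAAagcaagctaatt
*Cyp2a4*: tgtctctggatgTATAAAagcaagctaatt
*Cyp2d26*: ccctcctccctcTTTATAagggaccaggtt
*Cyp2d9*: ccctggcactccTTTATAaggtgacaggat
They read 5′ to 3′ on the strand of the gene. They lie at chr7:140763776-140763805 (+) for *Cyp2e1*, chr7:26835298-26835327 (+) for *Cyp2a5*, chr7:26307152-26307181 (+) for *Cyp2a4*, chr15:82794259-82794288 (-) for *Cyp2d26* and chr15:82452337-82452366 (+) for *Cyp2d9*.

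The windows of *Cyp2a4* and *Cyp2a5* were identical over these 30 bases, although the ratios of the genes were 1.86 and 3.39. With a promoter entry, 4 of 12 higher members, 0 of 6 lower members and 4 of 10 members that were neither held the motif. The motif thus did not separate higher members from those that were neither. CCAAT was found for 47.1% of members and in 33.8% of windows, GTTAAT for 17.6% and 6.43%, and CAAAGTCCA for 5.88% and 0.384%. TGACCT was found for 5.88% of members and in 4607 of the 32851 windows, and TGACNNNGC for 5.88% and 10.2%. TCACNCCAC was found for 0 members and in 1.05% of windows. The HNF1 palindrome, which contains GTTAAT, and a direct repeat of AGGTCA with 1 base between (DR1), which contains TGACCT on the opposite strand, were also found for 0 members and in only 0.00913% and 0.0335% of windows. A match is a description of these letters and not a binding site.

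Genes that serve P450 enzymes were held to the same 2-fold rule, by which 7.02% of all 14997 genes were higher and 10.5% lower. At these shares few calls are likely in lists this short, so the counts below say little about these genes as a group. Of 10 electron donors and membrane partners, 0 were at least 2-fold higher or lower, with a median log2 difference of 0.14. *Por*, the reductase that supplies the microsomal P450 enzymes, was 275 in WT+AKI against 257 in TG+AKI, a ratio of 0.933 [0.907 to 0.959]. *Cyb5a*, the cytochrome b5 that can pass on an electron, was 406 and 745, a ratio of 1.83 [1.80 to 1.87]. *Fdx1*, the ferredoxin of mitochondrial P450 enzymes, was 29.9 and 54.9, a ratio of 1.84 [1.71 to 1.98].

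Of 7 genes of heme synthesis examined, the pathway that makes the P450 cofactor, *Uros* alone passed the 2-fold rule, and all 7 log2 differences lay between 0.39 and 1.24. *Uros* was 9.98 in WT+AKI against 23.7 in TG+AKI, a ratio of 2.38 [2.11 to 2.68], and with equal column totals its log2 difference was 0.97, under the threshold. *Alas1*, the first and regulated step, was 183 and 267, a ratio of 1.46 [1.42 to 1.51].

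The epoxide hydrolases, which open the epoxides that P450 enzymes form, gave 1 lower gene and 2 within 2-fold among the 3 of 4 that passed the threshold on low values. *Ephx1*, the microsomal enzyme, was 394 in WT+AKI against 55.5 in TG+AKI, a ratio of 0.141 [0.134 to 0.148] or 7.09-fold lower. *Ephx2*, the soluble enzyme that acts on arachidonic acid epoxides, was 240 and 402, a ratio of 1.68 [1.64 to 1.72] that did not reach 2-fold. *Ephx3* was 1.34 and 0.996, and *Ephx4* had 4 reads in each library.

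**Figure D4:**
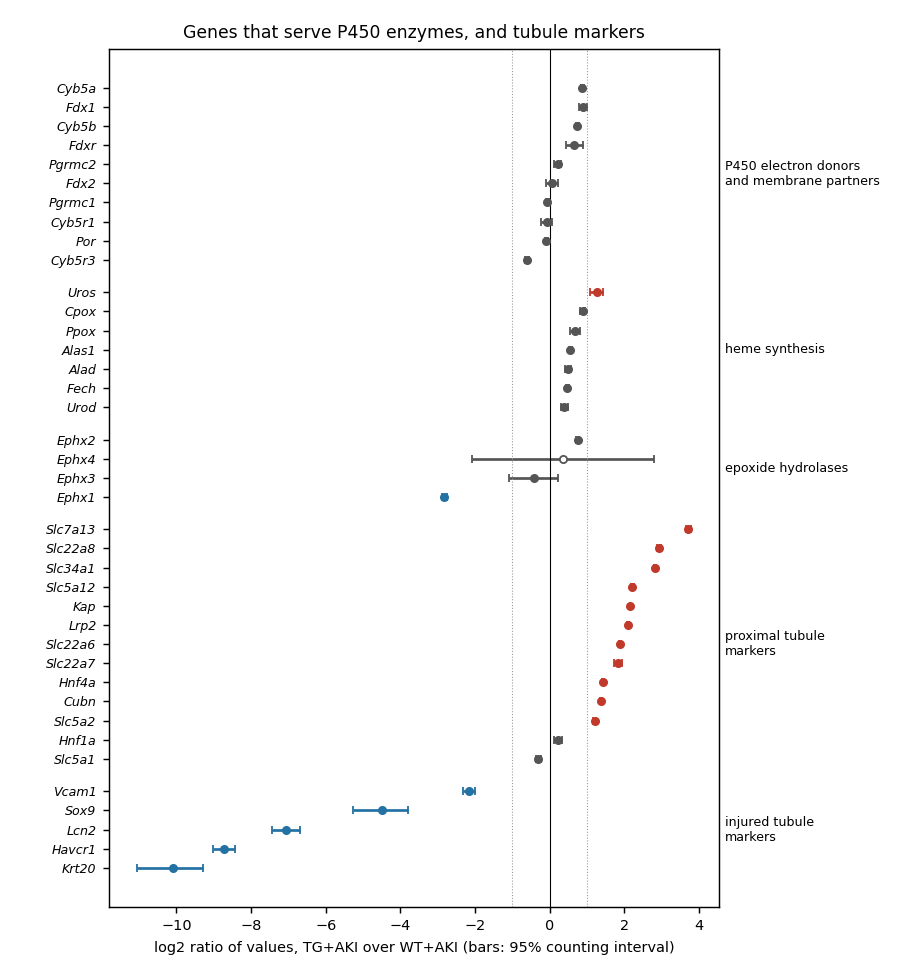
Log2 ratio of TG+AKI over WT+AKI for genes that serve P450 enzymes and for tubule markers, with bars for the 95% counting interval. Red points are at least 2-fold higher, blue at least 2-fold lower, grey neither and open points below a value of 1, and dotted lines mark 2-fold. The 10 electron donors lie between -0.61 and 0.88 and the 7 heme synthesis genes between 0.39 and 1.24 on the log2(value + 0.1) scale, whereas 11 of 13 proximal tubule markers lie to the right and all 5 injured tubule markers to the left.

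Hepatocyte markers were examined because many P450 genes are best known from the liver. Of 10 such genes 8 were listed, with 2 higher, 3 lower and sums of 1184 in WT+AKI against 471 in TG+AKI. Of the 7 that passed the threshold, 28.6% were higher and 42.9% lower, against 7.02% and 10.5% of all genes. The lower genes were the fibrinogen genes *Fga*, 689 and 39.1, and *Fgb*, 47.8 and 2.84, and *Apoc3*, 21.5 and 8.15. Without *Fga* the sums were 495 and 432, of which *Apob* gave 333 and 288. *Alb*, the albumin gene, was higher at low values, 0.802 and 8.27, and *Ttr*, the transthyretin gene, was higher at 22.8 and 75.5.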

How the data were processed

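The deposited table held 1 normalized signal per gene for each library, which the authors made by scaling read counts. Reads were aligned with STAR 2.7.3a and counted with HTSeq. DESeq2, edgeR, FastQC, Cufflinks 2.2.1 and mm10, the assembly also called GRCm38, are named in the submitters' processing notes. The annotation and the strand setting of the counting were not given in the sources used here, so overlapping and antisense genes may share reads. Libraries were made from polyadenylated RNA with a stranded kit.

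Every value was a whole multiple of the column's smallest (100% in both libraries, within 0.001 reads), so whole reads were recovered. The deposited scaling matched TMM factors of edgeR 4.0.16. A value of 1 stood for 42.4 reads in WT+AKI and 33.1 in TG+AKI. Genes were compared on the log2(value + 0.1) scale, with a 2-fold rule. Ratio intervals (scipy 1.17.1, Python 3.11.15) were two-sided Clopper-Pearson intervals on the reads. An exact binomial test on reads was an alternative, which compares 2 libraries and not 2 conditions. Named genes were members past the rule at a value of at least 10, the 10 members highest in a library, all members of the small role lists, partner genes past the rule and *Inmt*. Members named beyond this rule complete the account of each subfamily and were chosen after their values were seen. Members and lists were chosen with earlier results of these data known. Gene types and positions came from RefSeq on GRCm38.p6. Transcript lengths and shared 100-base words came from the longest GENCODE M21 transcript, which 52 members had. 1 gene of the partner lists is not reported here.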

Additional observations from a re-analysis of the deposited data

How the results depend on the processing

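The 18 higher and 7 lower members became 11 and 1 with a pseudocount of 10, and the lower count was 4 with a threshold of 10 on the value. The other alternatives gave between 12 and 19 higher and between 5 and 8 lower members. The median log2 difference of the members, 0.87, was 0.63 with a pseudocount of 1, 0.15 with a pseudocount of 10, 0.59 with no threshold on low values, 0.64 with a threshold of 10, 0.73 when scaled to a median ratio of 1 (genes with values of 100 or more in each library) and 0.61 when column totals were set equal. Equal column totals moved the median of all genes to -0.30 and gave 687 higher and 2346 lower genes, so that 22.7% of called genes were higher, in place of 40.0%. A median ratio of 1 gave 841 and 1932 (30.3%) and a median of -0.16. Of 20 named genes past the 2-fold rule, 14 kept the call under all 6 settings tried for them. *Cyp46a1*, *Cyp4b1-ps2*, *Cyp4f16*, *Cyp4f17*, *Cyp4v3* and *Uros* lost it with a pseudocount of 10, and *Uros* was the exception to 19 that kept it under every scaling. With equal column totals *Cyp26b1* reached -1.11. The exact binomial test on reads, adjusted by Benjamini-Hochberg, passed 11011 of 14997 genes and 39 of 43 members, so it hardly selects at this depth, and adding it removed no called member. Leaving out members that share at least 20% of their words left 16 higher and 7 lower. No paired analysis was possible because each group has 1 library and the result comes from no test over samples, and no library could be left out. Low members are limited by depth: 3 reads correspond to 0.0708 in WT+AKI and 0.0906 in TG+AKI.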

Other observations

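Some P450 enzymes do not carry a Cyp symbol and so were not members. *Tbxas1*, thromboxane synthase, was 2.31 in WT+AKI against 14.1 in TG+AKI, a ratio of 6.11 [4.91 to 7.68]. *Ptgis*, prostacyclin synthase, was 2.76 and 2.63, a ratio of 0.952 [0.713 to 1.27]. Both genes were chosen after their values were seen.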
